A study of Homo sapiens with 6 samples.

Results

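Long non-coding RNA (lncRNA) genes were examined in SNU668, a human cell line from a signet-ring cell carcinoma of the stomach, after knockdown of GPER. GPER, listed under the symbol GPER1, is the G protein-coupled estrogen receptor of cell membranes. The members are the genes whose biotype in the table is lncRNA: 203 of the 2128 genes listed, beside 1841 protein-coding genes. There were 3 shControl libraries, whose genotype the labels give as WT, and 3 shGPER libraries, labelled as GPER knockdown (sh stands for a short hairpin RNA). Neither the number of hairpins nor separate cultures for the 3 libraries of each group are given by the labels; the spread behind every p-value is that between libraries and may be technical. All values are TPM (transcript abundance relative to the library), which scale each gene by transcript length and by the total of its library.

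lncRNA genes are transcribed and mostly spliced and polyadenylated like mRNA genes but carry no long open reading frame, and most are present at low levels. Some act in the nucleus as scaffolds of RNA-protein bodies or of chromatin regulators, some bind proteins in the cytoplasm, and some serve as precursors of microRNAs. Many lie antisense to a coding gene or start head to head with one from a shared promoter region, and such transcripts can be co-regulated with the neighbour or act on it.

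GPER1 (chr7:1082208-1093815, plus strand, GRCh38) measured 11.04, 11 and 10.41 TPM in shControl, against 1.83, 2.41 and 2.47 TPM in shGPER. The groups did not overlap, and 20.7% of the control mean was left. The log2 fold change was -1.87 (SE 0.11, adjusted p = 1.139e-06); an exact two-sided permutation test gave p = 0.1, the smallest that 3 against 3 libraries allow. The table is a selection: over all 2128 listed genes, 95.3% had no overlap between the groups, and of 1651 genes tested 98.4% were called in either direction, 47.8% higher and 50.6% lower in shGPER. A call is therefore the background state of this table, and the tests are not independent evidence that a gene responded. The listed genes summed to 61181 to 64236 TPM in shControl and 46584 to 49148 TPM in shGPER. Of 14 gastric and epithelial markers 2 were listed, CDH1 and TFF1, which summed to 5.08 to 6.67 TPM in shControl and 0.68 to 3.02 TPM in shGPER (TFF1 was called lower, adjusted p = 0.0112), so these genes give little on the labelled cell type. None of 5 leukocyte markers was listed; 4 of 5 fibroblast markers summed to 7.02 to 9.91 TPM in shControl and 31.9 to 33.2 TPM in shGPER, where COL1A1 alone was at 28.77 to 30.12 TPM, while DCN (mean 2.73 to 1.36 TPM) and LUM (2.52 to 1.20 TPM) were called lower; and 2 of 5 endothelial markers, CDH5 and ERG, summed to 2.09 to 2.52 and 7.52 to 8.71 TPM. Their part in the results below was not tested. In bulk RNA, fewer cells of a type and less RNA per cell cannot be told apart.

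After GPER knockdown the lncRNA genes moved in both directions, and BCYRN1 and NEAT1, by far the most abundant, were lower. Of called lncRNA genes whose direction the filter below had not fixed, 54.5% under 2 TPM and 58.1% at 2 to 5 TPM were higher. For protein-coding genes these shares were 66.1% and 61.8%, so this tilt was not particular to lncRNA genes. With genes kept at 1 TPM or more in at least 3 libraries, 131 of the 203 lncRNA genes were tested; 68 were higher in shGPER, 58 were lower and 5 were not called (limma on log2(TPM + 1), Benjamini-Hochberg adjusted p under 0.05). The share called was near the background of 98.4%. The change was at least 2-fold on this scale for 22 higher and 21 lower genes, and the scale understates the change of low genes. The median log2 fold change was 0.56 for the 131 lncRNA genes, against -0.49 for all tested genes and -0.54 for protein-coding genes. That median depends on the filter: 47 lncRNA genes were under 1 TPM in every library of a group and passed only through the other, which fixed 32 of them as higher and 15 as lower. Among the other 84, 36 were higher, 43 were lower and 5 were not called, so 45.6% of the called genes were higher, beside 44.3% of protein-coding genes counted in the same way. Of the 72 untested lncRNA genes, 45 were higher and 22 lower in every shGPER library than in every shControl library, beside the background of 95.3% without overlap. Over all 477 untested genes of the list, 342 were higher and 79 lower in this way, so the excess of higher genes was not particular to lncRNA genes. Among the 72, the groups overlapped for RWDD3-DT, SYT15-AS1, FAM182A, ENSG00000273221 and ENSG00000268230.

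The lncRNA genes were mostly low. Their median level, taken as the mean over the 6 libraries, was 1.24 TPM, against 6.22 TPM for protein-coding genes; 85 were under 1 TPM, 91 at 1 to 5, 16 at 5 to 10, 9 at 10 to 100 and 2 above that. In each shControl library 97, 98 and 89 lncRNA genes reached 1 TPM, and in the shGPER libraries 112, 117 and 111. In the same order, 16, 13 and 16 genes were listed at 0 in shControl and 8, 10 and 8 in shGPER. Fewer lncRNA genes were thus at 0 in every shGPER library than in any shControl library. This tilt was not particular to lncRNA genes. Over all 2128 listed genes, 24 were at 0 in all shControl libraries and 12 in all shGPER libraries. For protein-coding genes these counts were 14 and 5, and for lncRNA genes 7 and 5.

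**Figure D1:**
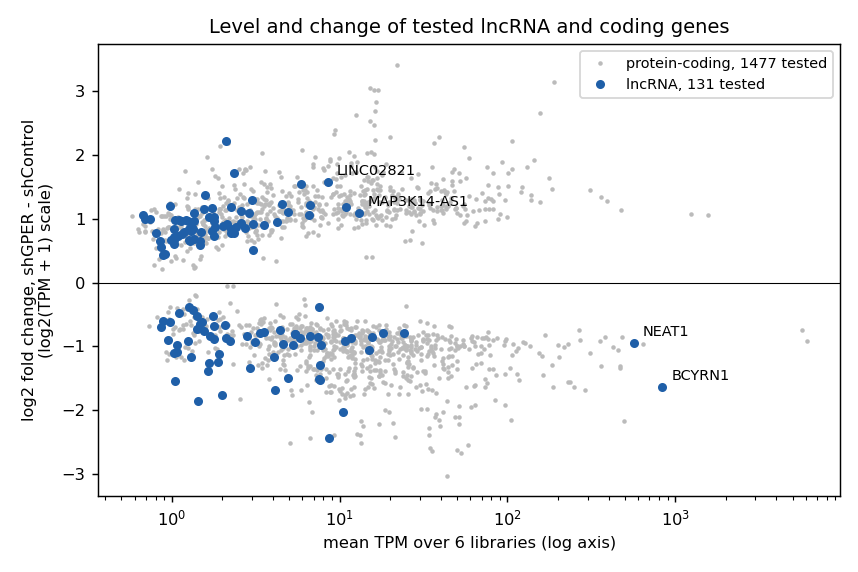
Mean TPM over the 6 libraries (log axis) against the log2 fold change, shGPER minus shControl on the log2(TPM + 1) scale, for 131 tested lncRNA genes (blue) and 1477 tested protein-coding genes (grey), 1 point per gene. Most lncRNA genes lie under 10 TPM on both sides of 0, and BCYRN1 and NEAT1 lie far to the right, below 0.

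Direction went with level. Among called genes whose direction the filter had not fixed, 12 of 22 lncRNA genes under 2 TPM were higher, 18 of 31 at 2 to 5 TPM, 4 of 15 at 5 to 10 TPM and 2 of 11 at 10 TPM or more, HSD17B1-AS1 and MAP3K14-AS1. For protein-coding genes the same shares were 66.1%, 61.8%, 37.2% and 39.3%. The difference between lncRNA and coding genes within these classes was not tested.

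BCYRN1 was the most abundant lncRNA gene and fell to 32.6% of its control mean. It encodes brain cytoplasmic RNA, a primate RNA that arose from an Alu element, is made by RNA polymerase III and represses translation; it was first known in neurons and is found in several carcinomas. Its level was 1333.58, 1372.6 and 1082.42 TPM in shControl and 303.19, 410.17 and 521.7 TPM in shGPER. Every shGPER library lay below every shControl library, with a spread in both groups (log2 fold change -1.64 with SE 0.18, adjusted p = 3.593e-05). The gene spans chr2:47335315-47335514 on the plus strand, 200 bases in 1 transcript, which GENCODE 29 types as a small cytoplasmic RNA. Much of the transcript is not unique: 126 of its bases lie in a 31-base word also found in transcripts of other genes, 260 genes in all. Of its 31-base words, 24.7% occur in other genes' transcripts. No source here says how reads of such words were assigned, so the level of BCYRN1 is uncertain.

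NEAT1, the architectural RNA of nuclear paraspeckles (chr11:65422774-65445540, plus strand), was the next most abundant. It was at 702.84, 730.94 and 805.11 TPM in shControl and at 389.42, 380.85 and 386.06 TPM in shGPER. The shGPER libraries lay close together, all below the controls, and 51.6% of the control mean was left (log2 fold change -0.95 with SE 0.06, adjusted p = 1.638e-06). With each library's trend on GC content removed, the change of NEAT1 was -0.38. BCYRN1 and NEAT1 made up 79.6 to 80.7% of the summed lncRNA TPM in shControl and 61.8 to 68.3% in shGPER. The sum of all lncRNA genes was 2525.69, 2605.55 and 2372.33 TPM in shControl and 1121.61, 1244.81 and 1329.72 TPM in shGPER. Without these genes it was 489.27, 502.01 and 484.8 TPM against 429, 453.79 and 421.96 TPM. The fall of the lncRNA sum was thus carried mainly by BCYRN1 and NEAT1.

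After these came 6 genes that complete the 8 with the highest mean. ENSG00000288851 had a mean of 30.8 TPM in shControl and 17.6 TPM in shGPER, and ENSG00000274213 23.1 and 13.4 TPM. PITPNA-AS1, antisense to the gene of a phosphatidylinositol transfer protein, was at 20.48, 24.88 and 15.86 TPM in shControl and 13.52, 8.91 and 10.11 TPM in shGPER. PPP1R14B-AS1, antisense to the gene of an inhibitor of protein phosphatase 1, was at 19.69, 21.58 and 20.31 TPM and at 9.49, 8.64 and 10.01 TPM (log2 fold change -1.05, SE 0.08). These 4 were lower in every shGPER library. Of the exon bases of PITPNA-AS1 69.9%, and of those of PPP1R14B-AS1 61.1%, overlap genes on the other strand. Reads of such overlaps cannot be told apart if strand was not used in the counting. MAP3K14-AS1, antisense to the gene of the NF-kB-inducing kinase, was the 1 of the 8 that rose: 8.26, 6.89 and 8.71 TPM in shControl against 16.59, 17.58 and 19.8 TPM in shGPER (log2 fold change 1.09, SE 0.11). The eighth, NDUFAF6, fell from a mean of 15.3 to 7.91 TPM. It is listed as lncRNA here, but GENCODE 29 types it as protein coding, and it encodes an assembly factor of respiratory complex I.

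Of the lncRNA genes that carry a symbol, reach a group mean of 2 TPM and show no overlap, 22 rose and 17 fell. The background is 95.3% of listed genes without overlap, and 47.8% of tested genes higher and 50.6% lower. These counts include genes whose direction the filter fixed, such as LINC00324, BCAN-AS1 and LINC01133, and are not a result about lncRNA genes. The 12 with the largest change each way are described. LINC02821 had the largest rise, from 3.41, 4.25 and 3.68 TPM to 13.56, 13 and 13.14 TPM (log2 fold change 1.58 with SE 0.10, adjusted p = 1.271e-06). EML2-AS1, antisense to the gene of a microtubule-associated protein, went from 3.07, 2.6 and 1.91 TPM to 9.5, 8.78 and 9.26 TPM (1.54, SE 0.13, adjusted p = 8.612e-06). Both were at least 3.5-fold higher by their means, with a narrow spread in shGPER. Of LINC02821's 31-base words 23.9% occur in other genes' transcripts, and 95.0% of the exon bases of EML2-AS1 overlap EML2 on the other strand. Without strand in the counting, reads of such overlaps cannot be told apart, and no source here says whether strand was used.

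LINC01963 rose from a mean of 2.31 to 6.71 TPM (log2 fold change 1.23) and CLEC12A-AS1, antisense to a myeloid lectin receptor gene, from 1.25 to 3.91 TPM (1.12). HSD17B1-AS1 rose from 6.28 to 15.6 TPM (1.18) and lies over HSD17B1, which encodes an enzyme that makes estradiol from estrone; 85.2% of its exon bases overlap that strand. TRIM8-DT, divergent to the gene of a ubiquitin ligase and with 100% of its exon bases antisense to TRIM8, rose from 3.93 to 9.28 TPM (1.06). Each of these genes had no overlap between the groups. With the trend on GC content removed, HSD17B1-AS1 was no longer called (0.16, adjusted p = 0.0665) and TRIM8-DT turned to -0.026 (adjusted p = 0.850). CASC8, a gene of a cancer susceptibility region, rose from 2.75 to 7.13 TPM (1.11), DCTN6-DT, divergent to a dynactin subunit gene, from 0.607 to 2.09 TPM (0.97), and ST7-AS1 from 1.79 to 4.27 TPM (0.92). LINC00324 (0.44 to 2.73 TPM) and BCAN-AS1 (0.76 to 2.57 TPM), antisense to the brevican gene, complete the 12, and the filter fixed their direction.

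CWC27 fell from 11.37, 13 and 11.07 TPM to 3.96, 3.03 and 3.33 TPM (log2 fold change -1.53 with SE 0.11, adjusted p = 3.341e-06), with no overlap. It is another gene that GENCODE 29 types as coding, for a cyclophilin of the spliceosome. CPLANE1-AS1 was at 4.04, 2.43 and 1.77 TPM in shControl and at 0.7, 1.04 and 0.02 TPM in shGPER (-1.25, SE 0.29, adjusted p = 0.003038). DUBR, known from muscle cell differentiation, fell from a mean of 7.27 to 3.21 TPM (-0.98), KRT7-AS, antisense to the keratin 7 gene, from 6.35 to 2.79 TPM (-0.96), and LAMA5-AS1, antisense to a laminin chain gene, from 3.20 to 1.23 TPM (-0.91). Keratin 7 and laminin belong to epithelial cells and their basement membrane. LINC02693, also typed as coding by GENCODE 29, fell from 3.00 to 1.19 TPM (-0.87). Without NDUFAF6, CWC27, LINC02693 and BCYRN1, which GENCODE 29 gives another type, 127 genes were tested, 68 higher and 54 lower. LINC01133, studied in several carcinomas, had 2.71, 3.07 and 3.39 TPM in shControl and 0.98, 0.71 and 0.47 TPM in shGPER, and the filter fixed its direction.

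**Figure D2:**
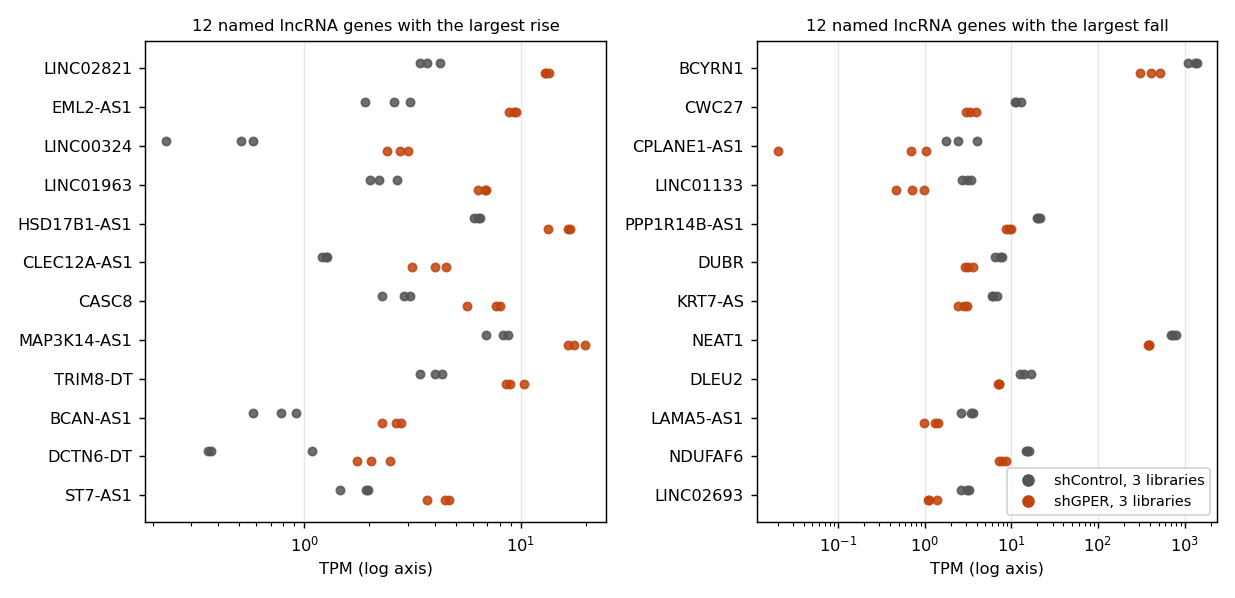
TPM (log axis) in each of the 3 shControl (grey) and 3 shGPER (orange) libraries for the 12 named lncRNA genes with the largest rise (left) and the largest fall (right), 1 point per library. The groups do not overlap for any of the 24 genes, which the rule required; the shGPER libraries of LINC02821 lie within 13 to 13.56 TPM, and those of CPLANE1-AS1 spread from 0.02 to 1.04 TPM.

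DLEU2 is the member of the microRNA host list that was listed, 1 gene in all. It lies at chr13:49982552-50125720 on the minus strand and holds MIR15A, MIR16-1 and MIR3613; the first pair, deleted in chronic lymphocytic leukaemia, repress cell cycle and BCL2 mRNAs. Its level was 13.87, 12.69 and 16.88 TPM in shControl and 7.12, 7.3 and 7.02 TPM in shGPER. All shGPER libraries were lower, and 49.4% of the control mean was left (log2 fold change -0.92 with SE 0.11, adjusted p = 5.209e-05). With the GC trend removed, the change was -0.04 (adjusted p = 0.736), so the call did not hold there; the GC content of DLEU2 is 34.2%. The mature microRNAs (RefSeq, GRCh38.p14) are shown for their common seed, bases 2 to 8, in capitals, which sets the targets that both can pair with:
hsa-miR-15a-5p: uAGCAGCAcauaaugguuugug
hsa-miR-16-5p: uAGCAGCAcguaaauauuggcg
The 2 share the whole seed and differ further 3′. The level of the mature microRNAs was not analysed here, and a host transcript level does not give it.

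No member of the snoRNA host list was listed. Of 73 well-studied lncRNAs 7 were listed: NEAT1, DLEU2 and LINC01133 were lower, HCP5 and HOXA-AS3 were higher, SLC7A11-AS1 was not called and HOTTIP was not tested. HCP5, a transcript of the major histocompatibility region, was at 0.24, 1.37 and 0.85 TPM in shControl and 1.68, 1.78 and 1.81 TPM in shGPER (log2 fold change 0.65, adjusted p = 0.01764), and lost its call with quantile normalization (0.20, adjusted p = 0.422). SLC7A11-AS1, antisense to the gene of the cystine-glutamate antiporter, spread over 0.34 to 2.75 TPM in shControl and 0.21 to 2.73 TPM in shGPER. The other 4 not called were WDR5B-DT, ENSG00000231864, ENSG00000260279 and ENSG00000267327. WDR5B-DT was at 5.86, 9.81 and 9.52 TPM against 5.32, 10.98 and 3.62 TPM, where the second shGPER library was above all the controls. Without that library WDR5B-DT changed by -0.77 (adjusted p = 0.0152), ENSG00000231864 by -1.04 (0.0207) and ENSG00000260279 by -0.58 (0.00759), each called lower. That library was singled out after its values were seen, and it held the highest shGPER value of each of these genes. These calls therefore follow from the choice and are no support for a fall.

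Over all 1651 tested genes, 47.8% were higher and 50.6% lower, and this is the background of the counts by class below. Among called genes whose direction the filter had not fixed, 44.3% were higher. Differences between the classes and this background were not tested. Names gave a partner for 91 lncRNA genes. Of 71 named antisense to a gene, 26 were higher, 20 lower, 2 not called and 23 not tested; the filter fixed 13 of the higher and 4 of the lower. Of 10 divergent transcripts, TRIM8-DT, DCTN6-DT and MCPH1-DT were higher, SUCLG2-DT was lower, WDR5B-DT was not called and 5 were not tested. Of 8 sense intronic transcripts, 4 were lower, those in KLC1, PTRF, MRPS28 and TBCD, 1 was higher, that in ZNF83, and 3 were not tested; the filter fixed the MCPH1-DT, TBCD and ZNF83 members. The 2 sense overlapping transcripts were not tested. Of 26 genes with a LINC symbol, 13 were higher, 5 were lower and 8 were not tested. The lower were LINC01836, LINC01551, LINC02693, LINC01133 and LINC00842. The filter fixed 5 of the higher, and LINC01133 and LINC00842 of the lower. Of 31 lncRNA genes with at least 50% of exon bases antisense to another gene, 11 were higher, 11 lower, 1 not called and 8 not tested, and the filter fixed 4 of the higher and 1 of the lower.

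The coding partner was seldom in the table, for 16 of the 91 by name, so positions from GENCODE 29 were added. For 20 lncRNA-coding pairs overlapping on opposite strands, 12 went the same way, 1 went the opposite way and 7 were not both called. Without pairs in which the filter fixed a member, 4 went the same way and 1 the opposite way. Over all 20 pairs with the GC trend removed, 6 went the same way, 0 the opposite way and 14 were not both called. The filter fixed a member of each of these 6 except ENSG00000231864 with SAPCD2, which were not both called before. HOXA-AS3 is in several of them, and none of the 4 pairs above was then still both called. Among 22 coding-coding pairs of the same kind, 11 went the same way and 2 the opposite way, or 10 and 2 without filter-fixed members. Within 50 kb and without overlap, 17 lncRNA pairs went the same way and 10 the opposite way (63.0% the same), beside 139 and 57 coding pairs (70.9%). Without filter-fixed members these were 6 and 6 lncRNA pairs, beside 100 and 47 coding pairs. With the GC trend removed and filter-fixed members kept, they were 11 and 3, beside 47 and 24. The filter fixed a member of the 11 except in ENSG00000272405 with NES, MAP3K14-AS1 with FMNL1 and HCP5 with MICB. Of the 3 opposite pairs it fixed a member of BCAN-AS1 with GPATCH4. The difference between lncRNA and coding pairs was not tested. Several pairs share a gene, and overlapping genes may share reads.

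The HOXA cluster held lncRNA and coding genes that were all higher in shGPER. HOXA genes encode homeobox factors of body axis patterning. HOXA-AS3 (chr7:27129977-27155928, plus strand) was at 0.5, 0.41 and 0.4 TPM in shControl and 1.48, 1.97 and 2 TPM in shGPER, a direction the filter fixed. It overlaps HOXA3, HOXA5 and HOXA6 on the other strand. HOXA3 rose from 22.77, 19.4 and 19.88 TPM to 36.35, 52 and 56.57 TPM (log2 fold change 1.16, adjusted p = 0.0001003). HOXA5 rose from a mean of 1.16 to 3.88 TPM (1.18) and HOXA6 from 1.11 to 4.27 TPM (1.33). HOTTIP, a transcript of the 5′ end of the cluster that brings the histone methyltransferase complex of WDR5 to it, had 0.21, 0.2 and 0.42 TPM in shControl and 0.83, 0.72 and 1.12 TPM in shGPER. It was too low to be tested, and all shGPER libraries were above the controls. Its start lies 45994 bases from that of HOXA3.

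MNX1-AS1 and MNX1 went opposite ways from neighbouring start sites. MNX1 encodes a homeobox factor of motor neurons and pancreas. MNX1-AS1 (chr7:157010805-157016426, plus strand) was at 6.56, 4.79 and 5.95 TPM in shControl and 3.34, 2.17 and 3.74 TPM in shGPER (log2 fold change -0.74 with SE 0.17, adjusted p = 0.003044). MNX1 was at 1.76, 1.76 and 2.05 TPM and at 5.49, 5.6 and 6.24 TPM (1.25, SE 0.10, adjusted p = 6.716e-06). Neither gene overlapped between the groups, and the level order of the genes was turned: in shControl the lncRNA was the higher of the 2, in shGPER MNX1. With the GC trend removed both calls held, at -1.76 for MNX1-AS1 and 0.28 (adjusted p = 0.0299) for MNX1. The start sites lie 154 bases apart in GENCODE 29 and 194 bases apart in RefSeq. The RefSeq promoter window of MNX1-AS1 (GRCh38.p14, chr7:157010607-157010906, plus strand) is shown with the 193 bases between the RefSeq start sites in capitals, the stretch that separates the rising from the falling transcript:
MNX1-AS1: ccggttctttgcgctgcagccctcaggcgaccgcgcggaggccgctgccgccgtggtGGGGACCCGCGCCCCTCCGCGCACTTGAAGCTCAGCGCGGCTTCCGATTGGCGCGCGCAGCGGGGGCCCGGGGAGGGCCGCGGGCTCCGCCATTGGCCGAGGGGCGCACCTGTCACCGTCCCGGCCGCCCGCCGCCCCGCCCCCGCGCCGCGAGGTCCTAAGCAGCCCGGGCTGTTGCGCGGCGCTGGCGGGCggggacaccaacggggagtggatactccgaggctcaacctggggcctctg
This stretch has 81.3% G and C, and the whole window 77.7%.

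Among pairs that overlap, ST7-AS1 and ST7 were the 1 called in opposite directions. ST7, a candidate tumour suppressor gene, fell from 28, 25 and 28.55 TPM to 11.68, 12.82 and 12.52 TPM (log2 fold change -1.08, adjusted p = 2.978e-06). ST7-AS1 rose from 1.46, 1.98 and 1.93 TPM to 3.69, 4.64 and 4.49 TPM (0.92, SE 0.13, adjusted p = 0.0001333); 47.7% of its exon bases overlap ST7. With the GC trend removed ST7-AS1 was not called (0.17, adjusted p = 0.208), and ST7 stayed lower (-0.42). ENSG00000267125, whose start lies 3919 bases from that of REXO1, was also opposite to REXO1. It had 12.23, 11 and 8.9 TPM in shControl and 8.19, 1.19 and 4.36 TPM in shGPER (-1.29, SE 0.44, adjusted p = 0.0208). It is named antisense to KLF16, and 96.6% of its exon bases overlap KLF16 on the other strand, so the limit on strand given above holds here too. REXO1, an exonuclease gene, rose from 13.7 to 26.3 TPM and was not called with the GC trend removed (-0.17).

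CD44, the hyaluronan receptor of epithelial and tumour cells, had 2 lncRNA genes at its locus, and all 3 were lower in shGPER, though the filter fixed the direction of both lncRNA genes. CD44 fell from 691.4, 664 and 663.2 TPM to 261.9, 247.7 and 284.3 TPM (log2 fold change -1.35, adjusted p = 3.633e-07). CD44-AS1 had 1.25, 1.15 and 2.25 TPM against 0.18, 0.37 and 0.5 TPM, and ENSG00000251194, on the strand of CD44, 1.56, 1.85 and 1.83 TPM against 0.12, 0.65 and 0.12 TPM. Whether these low levels hold reads of CD44, which overlaps both, was not tested. With the GC trend removed neither lncRNA gene was called, CD44-AS1 at 0.0064 (adjusted p = 0.977) and ENSG00000251194 at -0.20 (adjusted p = 0.312), while CD44 stayed lower (-0.81).

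Other pairs went the same way. RUNDC3A-AS1 and RUNDC3A rose (0.76 and 1.67 on the log2 scale), as did FMNL1-AS1 and the formin gene FMNL1 (0.65 and 1.09), and PARD6G-AS1 and the polarity gene PARD6G (0.90 and 0.35). The filter fixed the direction of RUNDC3A-AS1, FMNL1-AS1 and RUNDC3A itself. ENSG00000271858 and CACNA2D2, a calcium channel subunit gene, rose by 1.18 and 0.52, and ENSG00000187185 and KIFC3, a kinesin gene, by 1.10 and 1.00. Lower pairs were ENSG00000263165 and ANKFY1 (-0.86 and -0.60), CPLANE1-AS1 and CPLANE1 (-1.25 and -0.90), and NDUFAF6 and CCNE2, the cyclin E2 gene (-0.88 and -1.03). Of the exon bases of ENSG00000263165 100% overlap ANKFY1 on the other strand, and of those of ENSG00000271858 50.4% overlap CACNA2D2. The limit on strand given above holds for both pairs. ENSG00000276850 and NPY4R2, a neuropeptide Y receptor gene, fell by 2.03 and 1.17 on the log2 scale, where the filter fixed NPY4R2. The lncRNA of that pair had 15.01, 17.98 and 19.09 TPM against 3.69, 3.33 and 3.39 TPM; 73.8% of its 31-base words occur in other genes' transcripts, so its level is uncertain. With the GC trend removed, ENSG00000271858 (0.20, adjusted p = 0.571), ENSG00000187185 (0.46, adjusted p = 0.197), FMNL1-AS1 (0.16, adjusted p = 0.341) and ENSG00000263165 (-0.10, adjusted p = 0.428) were not called, and among the coding genes CACNA2D2 (-0.18), KIFC3 (0.0043), PARD6G (0.37), CPLANE1 (0.020) and CCNE2 (-0.11) were not called either, with adjusted p-values of 0.261, 0.946, 0.0633, 0.955 and 0.400. Of these pairs, RUNDC3A-AS1 with RUNDC3A and ENSG00000276850 with NPY4R2 were then still both called. PITPNA-AS1, described above, was at -0.51 (adjusted p = 0.0581) with that trend removed. With quantile normalization RUNDC3A-AS1 (0.32, adjusted p = 0.117) and FMNL1-AS1 (0.22, adjusted p = 0.145) were not called.

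**Figure D3:**
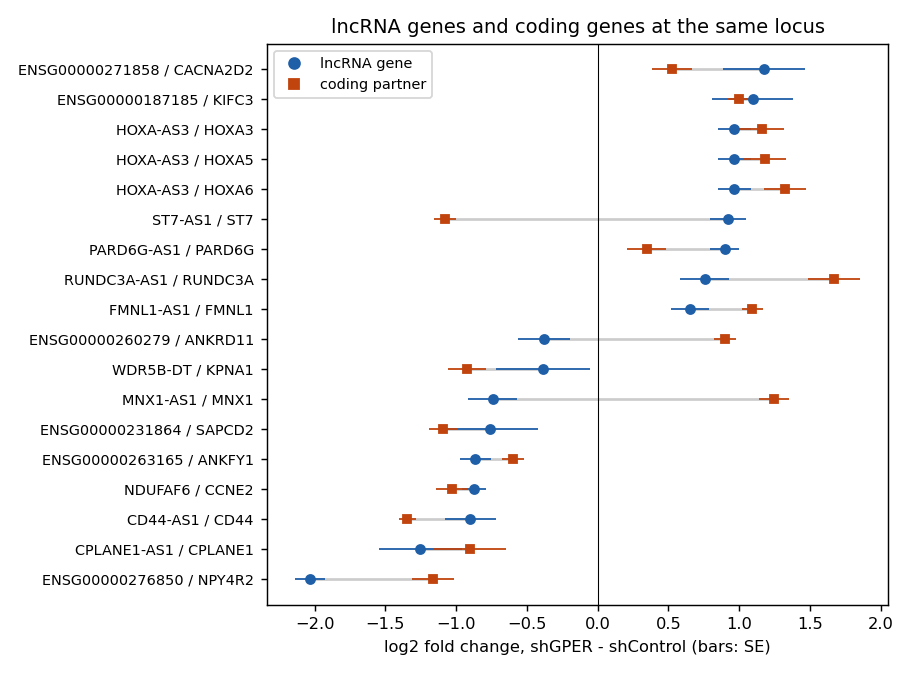
Log2 fold change, shGPER minus shControl on the log2(TPM + 1) scale, of lncRNA genes (blue circles) and of the coding gene at the same locus (orange squares) in 18 pairs with both genes tested; bars are the SE of the fit over 3 against 3 libraries. In 3 pairs, ST7-AS1 with ST7, MNX1-AS1 with MNX1 and ENSG00000260279 with ANKRD11, the points lie on opposite sides of 0; ENSG00000260279 itself was not called.

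Direction went with GC content in coding genes. In lncRNA genes it did so more weakly and not steadily over the 4 GC classes below. Over the 74 tested lncRNA genes with a GC value whose direction the filter had not fixed, Spearman's rho of transcript GC content and log2 fold change was 0.22, a description across genes that share their libraries; it was 0.605 over 1318 coding genes chosen alike. With filter-fixed genes included it was 0.33 over 115 lncRNA genes. Without NDUFAF6, CWC27, LINC02693 and BCYRN1 it was 0.19 over 70 lncRNA genes that the filter had not fixed. Among the genes not fixed, the median GC content was 56.1% for higher and 50.4% for lower lncRNA genes, and 60.0% and 44.1% for coding genes. In the lowest of 4 GC classes, 34.2 to 46.6%, 7 lncRNA genes were higher and 8 lower, against 44 and 458 coding genes. In the second, 46.6 to 52.7%, 5 lncRNA genes were higher and 14 lower, against 62 and 171 coding genes. In the third, 52.7 to 58.5%, 11 lncRNA genes were higher and 7 lower, against 126 and 59 coding genes. In the highest class, 58.5 to 70.0%, 11 lncRNA genes were higher and 6 lower, against 333 and 33 coding genes. Of those averaging 2 TPM or more, 5 were higher and 6 lower in the lowest class and 8 and 5 in the highest. With filter-fixed genes the counts were 13 of 27 called lncRNA genes higher in the lowest class and 21 of 28 in the highest. LINC01963, with a GC content of 44.7%, CLEC12A-AS1, with 46.3%, and CASC8, with 45.6%, are among these lncRNA genes, and their log2 fold changes with the GC trend removed were 1.99, 1.77 and 1.81. The difference between lncRNA and coding genes was not tested. With that trend removed, 512 of all 1626 genes in the fit were higher and 506 lower, and 964 kept both call and direction. Beside this background, 41 of the 115 lncRNA genes were higher and 37 lower, and 73 kept both call and direction. Of the genes that kept their call, several moved closer to 0: LINC02821 to 0.84, EML2-AS1 to 0.57, MAP3K14-AS1 to 0.32, PARD6G-AS1 to 0.49, HOXA-AS3 to 0.24, CWC27 to -0.61, NDUFAF6 to -0.30 and LINC01133 to -0.41. HOXA3 moved to 0.69 and HOXA6 to 0.39. Others moved away from 0: LAMA5-AS1 to -1.996, ENSG00000274213 to -1.82 and RUNDC3A-AS1 to 1.41.

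**Figure D4:**
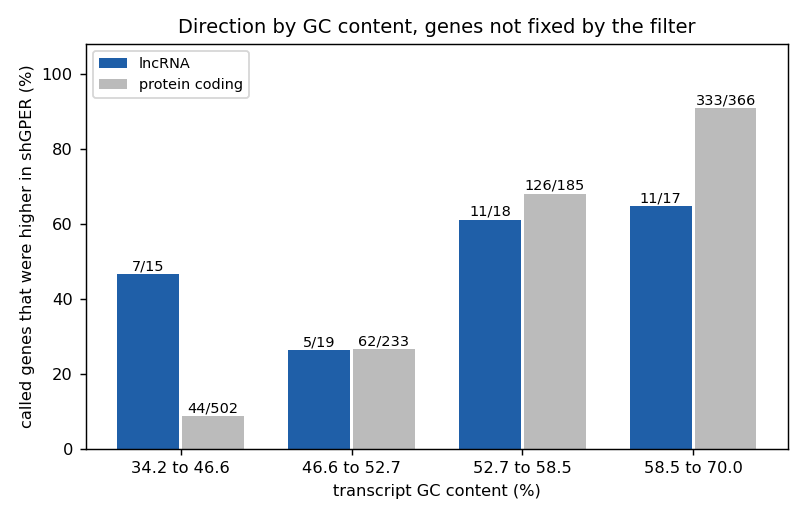
Share of called genes that were higher in shGPER (%), by transcript GC content in 4 classes, for lncRNA (blue) and protein-coding genes (grey) whose direction the filter had not fixed; the numbers above the bars are higher genes of called genes. In the lowest class 7 lncRNA genes were higher and 8 lower against 44 and 458 coding genes. In the second class these were 5 and 14 against 62 and 171, and in the highest class 11 and 6 against 333 and 33.

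Promoter windows (RefSeq, GRCh38.p14, 300 bases around each start site) matched 51 lncRNA genes, of which 19 were higher and 13 lower. Motifs were searched by their letters on both strands; no motif contains another. The TEAD letters GGAATG, for the factors that bind YAP, the effector of the Hippo pathway named in the study's title, occurred in 6 of the 51 windows (11.8%), beside 14% of 35116 windows of all genes. The GC box GGGCGG occurred in 27 (52.9%, beside 45%), in 13 of the 19 higher and 6 of the 13 lower genes. The E-box CACGTG occurred in 5 (9.8%, beside 7.26%), the TATA letters TATAAA in 5 (9.8%, beside 11.5%), AP-1 TGANTCA in 1, KRT7-AS (1.96%, beside 7.71%), and the cAMP element TGACGTCA in none (beside 1.85%). These are matches of letters and do not show binding. Windows are printed for the gene with the largest rise, for the most abundant gene that rose and for an abundant gene that fell, with the motif letters in capitals. LINC02821 (chr12:70180077-70180376, plus strand) had none of the motifs, MAP3K14-AS1 (chr17:45247675-45247974, plus strand) had GC boxes, and PPP1R14B-AS1 (chr11:64245616-64245915, plus strand) had the TEAD letters:
LINC02821: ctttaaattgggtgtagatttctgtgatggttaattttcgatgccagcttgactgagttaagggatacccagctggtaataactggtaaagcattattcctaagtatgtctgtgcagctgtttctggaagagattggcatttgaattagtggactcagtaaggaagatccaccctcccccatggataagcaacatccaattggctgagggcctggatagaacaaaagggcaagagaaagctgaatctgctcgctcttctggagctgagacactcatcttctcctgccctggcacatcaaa
MAP3K14-AS1: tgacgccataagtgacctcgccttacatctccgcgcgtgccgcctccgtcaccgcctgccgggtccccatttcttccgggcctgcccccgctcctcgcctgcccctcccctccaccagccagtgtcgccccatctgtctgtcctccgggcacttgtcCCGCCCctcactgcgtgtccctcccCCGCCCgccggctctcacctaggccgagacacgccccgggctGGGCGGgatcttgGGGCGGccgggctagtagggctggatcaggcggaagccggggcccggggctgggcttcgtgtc
PPP1R14B-AS1: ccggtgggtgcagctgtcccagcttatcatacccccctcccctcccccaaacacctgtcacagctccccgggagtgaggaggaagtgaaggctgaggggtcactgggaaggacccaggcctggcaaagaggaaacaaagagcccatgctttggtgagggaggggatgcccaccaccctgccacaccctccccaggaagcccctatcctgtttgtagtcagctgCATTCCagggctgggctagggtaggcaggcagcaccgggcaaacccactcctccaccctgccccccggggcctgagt
Their GC contents were 45%, 72.3% and 64%. The median window had 63% GC for the 51 lncRNA genes and 58.7% for all genes.

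Some lncRNA genes were listed at 0 in a whole group, and their fold change has no base. In all shControl libraries 7 genes were at 0. ENSG00000274177, with all of its exon bases antisense to TMEM259, was the 1 of these that was tested, at 2.94, 2 and 7.64 TPM in shGPER, and the filter fixed its direction. FAM222A-AS1 was at 0.41, 0.4 and 0.52 TPM there, and SUNO1, an RNA named for its rise in S phase, at 0.08, 0.15 and 0.18 TPM. In all shGPER libraries 5 genes were at 0. ENSG00000250615, antisense to ZBED3, had 1.48, 4.77 and 2.31 TPM in shControl and was called lower, a direction the filter fixed. ENSG00000286037, antisense to the protease inhibitor gene SPINT2, had 3.31, 1.21 and 0.82 TPM, and ENSG00000230325 had 1.15, 1.95 and 0.24 TPM. ENSG00000286864 and ENSG00000245748 did not exceed 0.2 TPM in shControl. A value of 0 in a TPM table can be a failed estimate, and no detection limit can be given without counts.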

How the data were processed

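The lists and the rules below were chosen with earlier results of these data known. Libraries were grouped by the titles in the labels, 3 shControl and 3 shGPER, and prepared with a ligation-based stranded mRNA kit from total RNA, per the labels' protocols. The authors deposited TPM, 1 value for each gene and library, beside the biotype. In the submitters' processing notes the build is hg38 and the tools are HISAT2, RSEM and fastp, without versions. TPM keep no read depth, so neither counting errors nor a count test are given.

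With limma 3.58.1 in R 4.3.3 (trend, no covariate), log2(TPM + 1) was modelled for all 1651 genes with at least 1 TPM in at least 3 libraries, with two-sided p-values adjusted by Benjamini and Hochberg over these genes and a threshold of 0.05; only lncRNA rows and their coding neighbours were read out. The fit was tested on simulated data. Tables were joined with Python 3.11.15 and pandas 2.3.3. GENCODE release 29 (GRCh38, also called hg38) gave a position for 175 of the 203 lncRNA genes, and for these the exon overlap, GC content and 31-base words shared with transcripts of other genes; 28 had no entry. Named genes are GPER1, the 12 largest rises and 12 largest falls among called genes that carry a symbol, reach a group mean of 2 TPM and do not overlap, the 8 most abundant, up to 20 pairs with a coding gene (19 were found; 1 is not reported here), and listed members of the host and well-studied lists. Genes outside this rule, such as those listed at 0, not called or at a locus already described, were named after their values were seen. Alternatives were other pseudocounts (0.1, 0.5), filters and scalings, removal of the GC trend (natural spline, 3 degrees of freedom), a replicate block, start sites within 5 kb, and leaving out each library.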

Additional observations from a re-analysis of the deposited data

How the results depend on the processing

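Beside 68 higher and 58 lower lncRNA genes, no filter on low TPM gave 115 higher and 78 lower, a filter of 5 TPM 9 and 22, quantile normalization 44 and 59, and removal of the GC trend 41 and 37. Over all genes the main fit gave 789 and 836, and removal of the GC trend 512 and 506. Counts over all genes under other settings are not given here, so the lncRNA counts are no result about lncRNA genes. Coding genes that the filter had not fixed also tilted with level: 66.1% of called ones were higher under 2 TPM and 39.3% at 10 TPM or more. Median centring moved every log2 fold change by 0.15 and gave 68 and 55. With a replicate block the counts were 68 and 57; the numbers share no origin in the labels, and deviations of same-numbered libraries correlated at 0.0327, -0.0872 and 0.0127. Leaving out each library in turn gave 35 to 68 higher and 40 to 59 lower, where the filter then tested fewer genes: 35, 35 and 36 higher without shGPER replicate 1, 2 or 3. With the tested genes kept, an alternative chosen after seeing the data, the ranges were 67 to 68 and 55 to 59. Of 43 named and tested lncRNA genes, none changed direction under another pseudocount, no filter, median centring, quantile normalization, the replicate block or a library left out with the tested genes kept, nor did the 21 that a filter of 5 TPM tested. With the GC trend removed 4 of 41 turned, SLC7A11-AS1 to 0.47, WDR5B-DT to 0.51, CD44-AS1 to 0.0064 and TRIM8-DT to -0.026; CD44-AS1, TRIM8-DT and 8 others lost the call. Divergent pairs within 1 kb called in the same direction numbered 1, also within 5 kb and with median centring. With the GC trend removed they numbered 0, and the cause was not tested. The 1 pair was NDUFAF6 with CCNE2, and GENCODE types NDUFAF6 as protein coding, as given above. MNX1-AS1 with MNX1, also within 1 kb, was called in opposite directions. Read depth, and with it the error of low genes, is unknown.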

Other observations

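Several lncRNA genes without a symbol, chosen after their values were seen, moved as far as the named ones. ENSG00000273760 had the largest fall of all tested lncRNA genes, from 14.89, 13.92 and 16.45 TPM in shControl to 3.26, 1.29 and 1.69 TPM in shGPER (log2 fold change -2.43, SE 0.21). It lies within the span of ENSG00000276850 on chromosome 10, and none of its 31-base words occurs in other genes' transcripts. ENSG00000275719, antisense to SLC1A5, the gene of a glutamine transporter, fell from 9.95, 7.79 and 5.6 TPM to 2.34, 1.55 and 2.36 TPM. ENSG00000232110, antisense to LIPA, the gene of the lysosomal acid lipase, fell from 13.3, 14.84 and 7.24 TPM to 3.23, 4.08 and 2.76 TPM. In both the groups did not overlap. For ENSG00000275719, 63.5% of exon bases overlap SLC1A5 on the other strand, so the limit on strand given above holds there. Of the exon bases of ENSG00000232110, 13.3% overlap LIPA on the other strand and 35.2% overlap other genes on the same strand. Of its 31-base words 32.4% occur in other genes' transcripts, and IFIT2 shares the most, so its level is uncertain. ENSG00000269958, within an intron of the kinesin light chain gene KLC1, fell from 10.49, 10.16 and 10.99 TPM to 5.09, 4.09 and 5.49 TPM.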
